A study of Mus musculus with 18 samples.

Results

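The 10 genes described here encode secreted or secretory-pathway proteins of 3 inhibitor families: the serpins Serpina3n, Serpinf1, Serpinf2, Serping1, Serpine2 and Serpinh1, the macroglobulin A2m, and the tissue inhibitors of metalloproteinases Timp1, Timp2 and Timp3. They were matched by gene symbol, and all 10 are among the 55291 symbols of the count and FPKM tables (FPKM, read fragments scaled to transcript length and to library size). They were chosen from measured values, since several of them are among the largest rises after kainic acid (KA), so their changes after KA are given as a description with no test. The comparisons that were not used for the choice, PBS with AAV control and IP with input in the animals without KA, are given with a test.

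Male C57BL/6J mice, aged 6 weeks, received AAV_DJ-GfaABC1D-EGFP-Rpl10a (RiboTag AAV) in the right CA3, which places a GFP-tagged ribosomal protein under the astrocytic GfaABC1D promoter, and this virus was shared by all groups. RNA was taken from the right hippocampus either from anti-GFP immunoprecipitates, enriched for astrocytic mRNA (IP), or from the same homogenate without precipitation (input). The KA group received KA in the right dentate gyrus 2 weeks after the AAV and its RNA was collected 14 days later, the AAV control group received the AAV alone and its RNA was collected 2 weeks afterwards, and the PBS group received PBS after the AAV at a time that the sources used here do not give. Each group had 3 samples that each pooled 3 to 4 mice, which gave 18 libraries of 7991681 to 16032180 counts (median 10313125). KA #1 and #2 and AAV control #1 and #2 were sequenced in run 1, KA #3 and AAV control #3 in run 2, and all PBS samples in run 3, so the PBS group and its run cannot be told apart. The AAV control group also differed from the KA group in the time after AAV.

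Serpins and macroglobulins are suicide or trap inhibitors: the target protease cuts a bait loop of the inhibitor and is then held by it, and many of the complexes are removed by the endocytic receptor Lrp1. TIMPs instead plug the zinc-containing active site of matrix metalloproteinases. In the brain, astrocytes are a main source of several of these proteins, which limit plasmin, thrombin, complement and metalloproteinase activity around cells and vessels, and Serpina3n is widely used as a marker of reactive astrocytes. Serpinf1 and Serpinh1 have the serpin fold but are not known as protease inhibitors.

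Astrocytic markers were checked first. The summed FPKM of 8 astrocytic markers (Aldh1l1, Slc1a2, Slc1a3, Aqp4, Gja1, Gjb6, Kcnj10 and Sox9) was 1534 to 2600.1 in AAV control IP and 237 to 295 in AAV control input, 1621 to 2477 in PBS IP and 303 to 325 in PBS input, and 1079.6 to 1319.6 in KA IP and 391 to 484 in KA input. The IP to input ratio of this sum was thus 7.99 ± 1.35 (SD, n = 3) in the AAV control group, 6.95 ± 1.71 in the PBS group and 2.78 ± 0.107 in the KA group. AAV control #3 stood apart from AAV control #1 and #2 in several of the 10 genes, and results that rest on it are given with and without it. In bulk RNA, more RNA per cell and more cells of a type cannot be told apart.

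To show the sequence in front of genes whose IP groups lay apart and of one whose IP groups overlapped, the 250 bases before the RefSeq start (GRCm38.p6) are printed for Serpina3n and Timp1, which are among the largest rises, and for Serpinh1, whose IP samples overlapped between the groups. The windows are chr12:104406458-104406707 on the plus strand, chrX:20869916-20870165 on the plus strand and chr7:99353240-99353489 on the minus strand, none of which holds an annotated exon. Capitals mark a GC box (GGGCGG on either strand).

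Serpina3n: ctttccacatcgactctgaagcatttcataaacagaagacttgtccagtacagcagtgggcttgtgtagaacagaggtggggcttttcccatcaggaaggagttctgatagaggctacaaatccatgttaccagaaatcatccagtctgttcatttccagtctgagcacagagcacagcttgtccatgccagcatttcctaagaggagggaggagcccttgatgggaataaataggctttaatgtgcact

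Timp1: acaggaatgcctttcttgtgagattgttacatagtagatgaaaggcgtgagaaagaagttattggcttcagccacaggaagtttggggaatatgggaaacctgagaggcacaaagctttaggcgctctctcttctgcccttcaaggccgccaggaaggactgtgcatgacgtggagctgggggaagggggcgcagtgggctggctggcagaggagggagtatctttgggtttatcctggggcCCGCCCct

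Serpinh1: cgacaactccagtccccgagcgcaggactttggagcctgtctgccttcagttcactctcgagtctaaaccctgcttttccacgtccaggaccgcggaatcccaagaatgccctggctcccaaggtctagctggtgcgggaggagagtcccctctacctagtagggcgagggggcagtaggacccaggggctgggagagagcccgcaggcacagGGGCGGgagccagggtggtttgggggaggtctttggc

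Of the 10 genes, 8 had such a window in the RefSeq table. Annotated exons covered 221 of the 250 bases for Serpinf1, 203 for Timp2, 90 for Serpinf2, 40 for Timp3 and 31 for Serpine2. None of the 8 windows held TTCNNNGAA (the palindrome bound by STAT factors), TGANTCA (AP-1) or GAANNTTC (the core of the heat shock element) on either strand. These motifs were present in 7.02%, 6.75% and 6.69% of 32851 windows of the same length. The GC box, which was added after these 3 gave no match, was present in 32.7% of the windows and in those of Serpine2 (6 copies), Serpinh1, Timp1, Timp2 and Timp3 (1 copy each), and was not found in those of Serpina3n, Serpinf1 and Serpinf2. The GC content was 46.4%, 51.6% and 57.2% in these last 3 windows, 54.4% for Timp1 and 63.6% to 78.8% in the other 4. The absence of these letters from 250 bases says nothing about binding elsewhere.

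Across the IP samples the 10 genes differed between the groups in their summed level and in which gene held the largest share. Their FPKM summed to 303 ± 65.3 in AAV control IP, 242 ± 24.0 in PBS IP and 1358 ± 261 in KA IP (n = 3 each). Serpine2 alone held 60.4% of the sum in AAV control IP and 63.1% in PBS IP, whereas Serpina3n held 43.2% in KA IP. By mean FPKM in AAV control IP, Serpine2 was the 248th most abundant of all symbols, whereas in KA IP Serpina3n was the 89th and Serpinf1 the 160th. Within AAV control IP, only Serpine2 and Serpinf1, and Serpinf2 and A2m, were neighbours in the order of levels with ranges that did not overlap. In the input the sums were 88.6 ± 8.10, 96.9 ± 16.5 and 302 ± 27.2, and Timp2 held 56.9%, 63.7% and 34.5% of them.

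**Figure D1:**
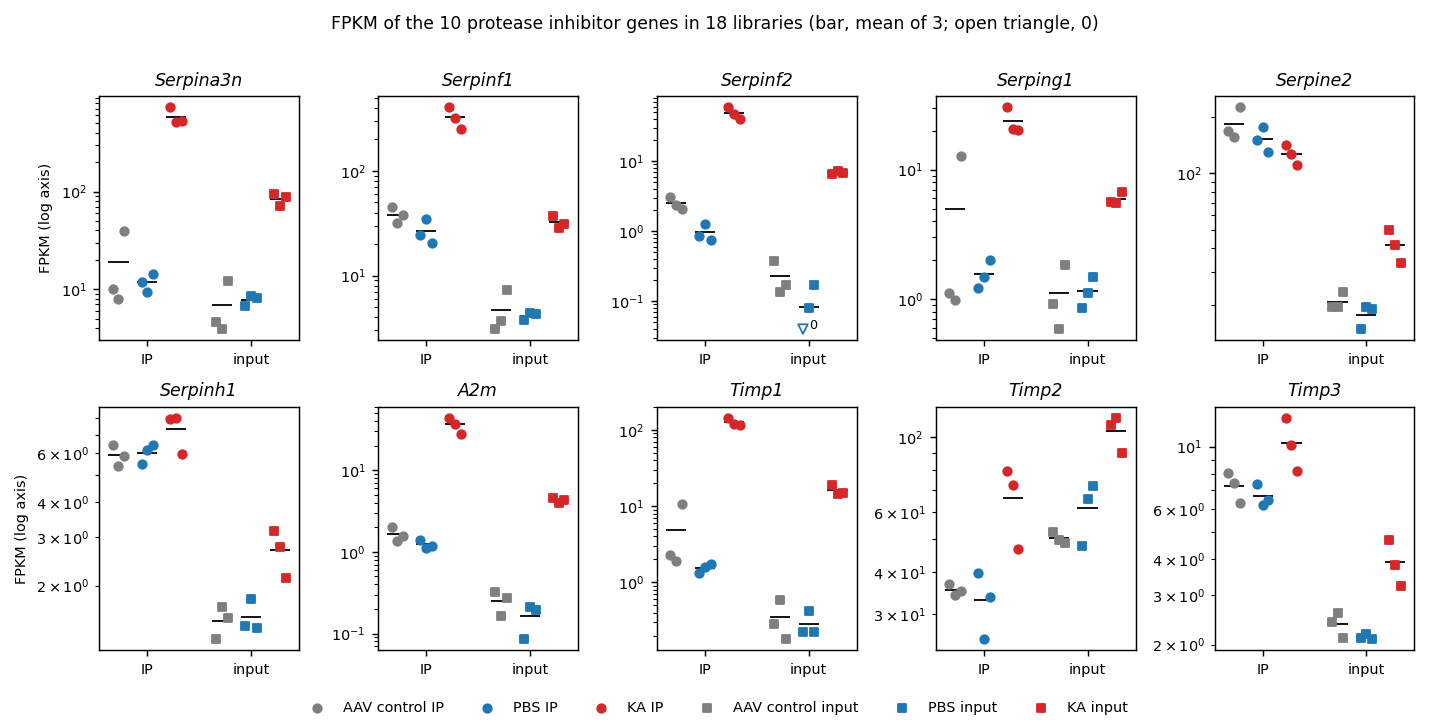
FPKM of each gene in the 18 libraries on a log axis, with circles for IP, squares for input, grey for AAV control, blue for PBS and red for KA, a bar at the mean of 3 and an open triangle for a value of 0. For Serpina3n, Serpinf1, Serpinf2, Serping1, A2m and Timp1 every KA sample lies above every sample without KA of the same kind, Serpine2 is lower in KA IP than in AAV control IP and higher in KA input, and AAV control IP #3 lies far above the other AAV control IP samples for Serpina3n, Serping1 and Timp1.

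Serpina3n, a secreted serpin that inhibits proteases such as granzyme B and neutrophil elastase, lies on chromosome 12 from 104406729 to 104414329 on the plus strand (protein coding; GENCODE, GRCm38) and overlaps no other gene. Its FPKM was 725, 511 and 521 in KA IP #1 to #3, 10.1, 8.01 and 39.3 in AAV control IP and 11.7, 9.37 and 14.2 in PBS IP. The lowest KA IP sample was 13.003 times the highest sample of the other IP groups, which was AAV control IP #3. In the edgeR fit the log2 fold change of KA was 4.91 (SE 0.705) against AAV control and 5.65 (SE 0.295) against PBS. Without AAV control IP #3 the first value was 6.12. In the input the FPKM was 93.3, 70.5 and 88.4 in KA input, 4.61, 3.91 and 12.1 in AAV control input and 6.70, 8.60 and 8.19 in PBS input, with log2 fold changes of 3.56 (SE 0.462) and 3.42 (SE 0.149). Here too AAV control input #3 was the highest sample without KA, and without it the input value was 4.37.

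Near-identical copies of Serpina3n lie next to it in the mouse genome, and how reads that map to several copies were counted is not stated in the sources used here. In KA IP the 3 libraries held 39451 counts of Serpina3n, 502 of Serpina3i and 101 of Serpina3h. Serpina3i had 120 to 199 counts per KA IP library, 0 to 11 in AAV control IP and 1 to 5 in PBS IP, and Serpina3h 32 to 35, 0 and 0 to 9. In KA input Serpina3i had 21 to 30 counts per library and Serpina3h 3 to 9. Serpina3g had 6 to 8 counts per KA input library, and the other Serpina3 symbols had at most 4 counts in any library of the KA group. The values of these copies are uncertain for this reason.

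Serpinf1 encodes pigment epithelium-derived factor, a neurotrophic and anti-angiogenic serpin without known inhibitory activity, and Serpinf2 encodes alpha-2-antiplasmin, the main fast inhibitor of plasmin. They are neighbours on chromosome 11 (75409769 to 75422701 and 75431732 to 75439591, both minus strand), with 9030 bases between them. Serpinf1 measured 405, 320.2 and 253 FPKM in KA IP, 44.9, 31.7 and 37.7 in AAV control IP and 24.5, 34.9 and 20.3 in PBS IP. All KA samples were above all others, with log2 fold changes of 3.14 (SE 0.241) and 3.57 (SE 0.323). In the input it measured 37.2, 28.3 and 31.3 FPKM in KA input, 3.08, 3.68 and 7.35 in AAV control input and 3.75, 4.37 and 4.29 in PBS input, and the log2 fold changes were 2.73 (SE 0.351) and 2.95 (SE 0.134).

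Serpinf2 measured 58.3, 47.3 and 39.4 FPKM in KA IP, 3.06, 2.38 and 2.08 in AAV control IP and 0.859, 1.28 and 0.738 in PBS IP. The log2 fold change of KA against AAV control was 4.32 (SE 0.205). Against PBS the gene was under the filter of FPKM above 1 in every library, and the fit without that filter gave 5.82 (SE 0.304). In KA input it measured 6.55, 7.23 and 6.71 FPKM (150, 160 and 159 counts), whereas the control inputs had 7, 3 and 5 counts (AAV control) and 0, 2 and 4 counts (PBS). Summed over the libraries, the ratio of counts per total was 31.8 against AAV control (exact 95% interval 19.1 to 57.3) and 81.8 against PBS (37.3 to 224), where the intervals cover counting error only.

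Serping1, the C1 inhibitor that inactivates C1r, C1s and the lectin pathway proteases, lies on chromosome 2 from 84765387 to 84775444 on the minus strand. It measured 30.2, 20.7 and 20.2 FPKM in KA IP, 1.11, 0.990 and 12.8 in AAV control IP and 1.21, 1.47 and 2.01 in PBS IP. AAV control IP #3 was 12.1 times the mean of the other AAV control IP samples and still below every KA IP sample. Against PBS the log2 fold change of KA was 3.94 (SE 0.243). Against AAV control the gene was under the filter, the fit without it gave 2.31 (SE 0.251), and the same fit without AAV control IP #3 gave 4.68. In the input it measured 5.63, 5.55 and 6.66 FPKM in KA input, 0.915, 0.586 and 1.85 in AAV control input and 0.856, 1.12 and 1.48 in PBS input, and the log2 fold changes without the filter were 2.31 (SE 0.287) and 2.34 (SE 0.226). The first of these became 3.05 without AAV control input #3.

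Serpine2 encodes the glia-derived nexin, an inhibitor of thrombin and of the plasminogen activators, and lies on chromosome 1 from 79794197 to 79861180 on the minus strand. It was the most abundant of the 10 genes in IP samples without KA and the only one whose KA IP samples all lay below AAV control IP. Its FPKM was 142, 127 and 111 in KA IP, 169, 155 and 224 in AAV control IP and 151, 177 and 129.9 in PBS IP. All KA IP samples lay below all AAV control IP samples and overlapped the PBS IP samples, with log2 fold changes of −0.50 (SE 0.250) and −0.29 (SE 0.285). Without AAV control IP #3 the first value was −0.25, and without PBS IP #2 the second was −0.08.

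In the input, Serpine2 went the other way. It measured 50.1, 41.7 and 33.4 FPKM in KA input, 19.6, 19.5 and 23.4 in AAV control input and 14.9, 19.5 and 19.0 in PBS input, so that every KA input sample was above every other input sample. The log2 fold changes were 0.99 (SE 0.186) against AAV control and 1.21 (SE 0.133) against PBS. The KA effect in IP was lower than that in input by 1.47 on the log2 scale (the difference was −1.47, SE 0.312) with the AAV control group as baseline and −1.52 (SE 0.300) with the PBS group. The summed astrocytic markers moved the same way, lower in KA IP and higher in KA input than in the AAV control and PBS groups, and their part in the values of Serpine2 was not tested.

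Serpinh1 encodes HSP47, a chaperone of collagen folding in the endoplasmic reticulum, and lies on chromosome 7 from 99345376 to 99353239 on the minus strand. It measured 7.98, 8.06 and 5.94 FPKM in KA IP, 6.40, 5.39 and 5.88 in AAV control IP and 5.47, 6.16 and 6.43 in PBS IP, and the groups overlapped. The log2 fold changes were 0.36 (SE 0.177) and 0.28 (SE 0.188). In the input it measured 3.15, 2.75 and 2.13 FPKM in KA input, 1.28, 1.67 and 1.53 in AAV control input and 1.43, 1.79 and 1.41 in PBS input, where all KA samples were above all others, with log2 fold changes of 0.82 (SE 0.230) and 0.77 (SE 0.223).

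A2m, alpha-2-macroglobulin, traps proteases of all classes and lies on chromosome 6 from 121635376 to 121679227 on the plus strand. It measured 44.0, 37.2 and 27.98 FPKM in KA IP, 1.997, 1.37 and 1.58 in AAV control IP and 1.40, 1.12 and 1.18 in PBS IP. The lowest KA IP sample was 14.01 times the highest AAV control IP sample, and the log2 fold changes were 4.50 (SE 0.236) and 4.87 (SE 0.225). AAV control IP #3 was 0.938 times the mean of AAV control IP #1 and #2, so A2m did not share the high value that this sample had for Serpina3n, Serping1 and Timp1. In the input it measured 4.56, 4.02 and 4.30 FPKM in KA input, 0.321, 0.164 and 0.272 in AAV control input and 0.0851, 0.212 and 0.196 in PBS input. It was under the filter there, and the fit without the filter gave 4.05 (SE 0.267) and 4.66 (SE 0.222).

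Timp1, the inducible inhibitor of most matrix metalloproteinases, lies on chromosome X from 20870166 to 20874735 on the plus strand, within the span of the neuronal gene Syn1 on the other strand and with no exonic base in common. It measured 145, 119 and 117 FPKM in KA IP, 2.31, 1.88 and 10.5 in AAV control IP and 1.34, 1.58 and 1.72 in PBS IP. The log2 fold change of KA was 4.64 (SE 0.644) against AAV control, 6.02 without AAV control IP #3, and 6.37 (SE 0.224) against PBS, the last of these being the largest value of the 9 genes tested in that comparison. In KA input it measured 19.0, 14.5 and 15.0 FPKM (166, 123 and 136 counts), against 2, 5 and 2 counts in AAV control input and 2, 4 and 2 counts in PBS input. The ratio of summed counts per total was 48.1 (exact 95% interval 25.1 to 106) and 55.6 (27.97 to 129.7, counting error only). Timp1 in the input without KA was therefore at or near the floor of 3 counts in most libraries.

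Timp2, which inhibits metalloproteinases and also takes part in the activation of pro-Mmp2 by Mmp14, lies on chromosome 11 from 118301069 to 118355740 on the minus strand. It was the only one of the 10 that was lower in IP than in input in every homogenate. It measured 79.6, 72.1 and 46.8 FPKM in KA IP, 36.9, 34.3 and 35.1 in AAV control IP and 39.8, 25.3 and 33.8 in PBS IP, with all KA samples above all others. The log2 fold changes, 0.94 (SE 0.197) and 0.999 (SE 0.220), lay just under the threshold of 1, and both were above it without KA IP #3 (1.08 and 1.16). In the input it measured 109, 114 and 89.99 FPKM in KA input, 52.7, 49.8 and 48.8 in AAV control input and 47.9, 65.6 and 71.7 in PBS input, with log2 fold changes of 1.05 (SE 0.138) and 0.75 (SE 0.126).

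Timp3, a matrix-bound inhibitor that also acts on ADAM and ADAMTS proteases, lies on chromosome 10 from 86300372 to 86349506 on the plus strand. Of its exonic bases 21.3% are shared with exons of Syn3 on the other strand, whose highest FPKM in any library was 0.344. It measured 12.6, 10.1 and 8.22 FPKM in KA IP, 8.05, 7.41 and 6.34 in AAV control IP and 7.36, 6.21 and 6.47 in PBS IP. All KA IP samples were above all others, the lowest narrowly, and the log2 fold changes were 0.56 (SE 0.167) and 0.62 (SE 0.179). In the input it measured 4.69, 3.81 and 3.23 FPKM in KA input, 2.40, 2.58 and 2.12 in AAV control input and 2.10, 2.18 and 2.09 in PBS input, and the log2 fold changes were 0.72 (SE 0.154) and 0.86 (SE 0.136).

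**Figure D2:**
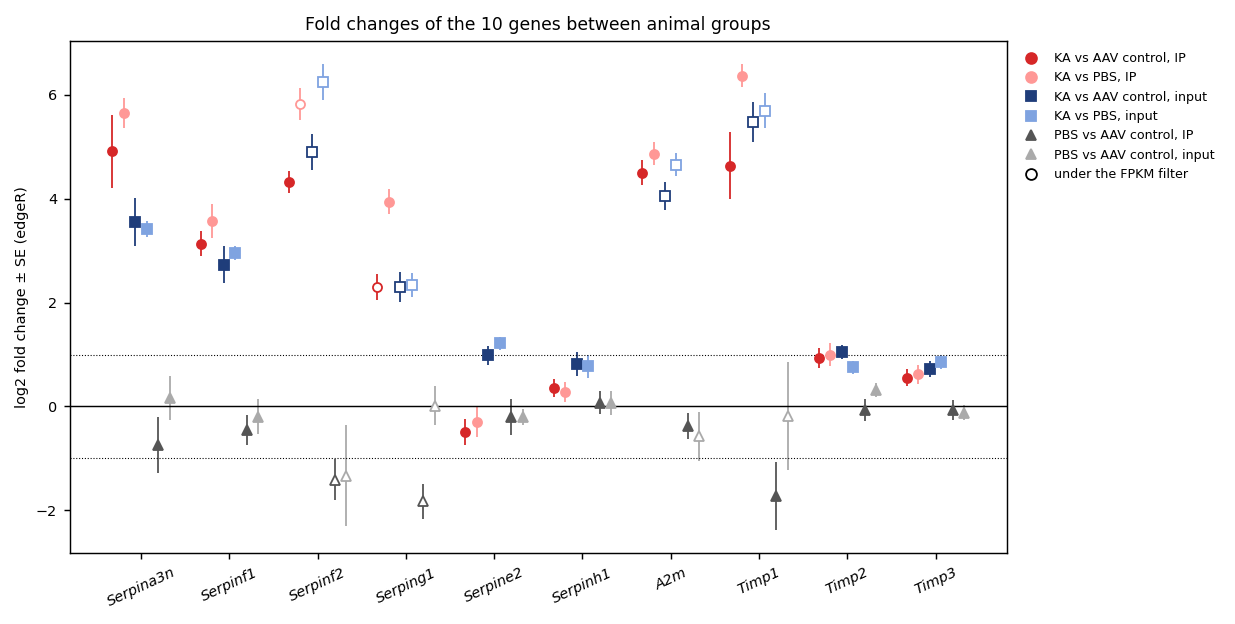
Log2 fold change with its SE from edgeR for each gene in 6 comparisons between animal groups, with open symbols for genes under the FPKM filter (fit without it) and dotted lines at −1 and 1. Serpina3n, Serpinf1, Serpinf2, Serping1, A2m and Timp1 lie between 2.31 and 6.37 in every comparison of KA, and Serpine2 lies below 0 in IP and near 1 in input.

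Counted over the list, 9 of the 10 genes passed the FPKM filter in KA IP against AAV control IP (Serping1 did not). Of these, 5 were called up, namely Serpina3n, Serpinf1, Serpinf2, A2m and Timp1 (adjusted p under 0.05 and absolute log2 fold change of at least 1) and none was called down. Over all 9729 genes tested 6.39% were called up and 5.22% down. Against PBS, 9 passed (Serpinf2 did not), 5 were called up, with Serping1 in place of Serpinf2, and 8.08% of all genes tested were. In the input 6 passed in both comparisons: Serpina3n, Serpinf1 and Timp2 were called up against AAV control (2.52% of all genes tested, with 0.185% called down), and Serpina3n, Serpinf1 and Serpine2 against PBS (4.26%). In the IP, KA samples lay above all AAV control samples for 8 genes and above all PBS samples for 8, where the share over all genes tested was 16.8% and 22.7%. In the input all 10 genes lay above in both, where that share was 12.2% and 18.4%. The choice of the genes rests on these contrasts, and the input comes from the same homogenates, so nothing is read from these counts.

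PBS and AAV control, which were not used to choose the genes, were compared to see how far the 10 genes differed without KA. By edgeR none of the 8 genes tested in IP and none of the 6 tested in input was called, as was the case for all genes (0% of 10667 and 0% of 10924). With no adjustment, 1 of the 8 (Timp1) and 0 of the 6 had a p under 0.05, and DESeq2 and limma-voom called none of these 8 and 6 genes either, while over all genes DESeq2 called 16 in IP and 14 in input and limma-voom 0 in both. Without adjustment 1153 genes in IP and 901 in input had a p under 0.05 by edgeR. Timp1 was at −1.72 on the log2 scale in IP (SE 0.654, adjusted p = 0.436 by edgeR), which became −0.36 without AAV control IP #3. Serpina3n was at −0.74 (SE 0.538, adjusted p = 0.600), which became 0.45 without that sample. In input Serpina3n was at 0.16 (adjusted p = 0.911 by edgeR), and without AAV control input #3 it was at 0.96 with an adjusted p of 0.000527 by edgeR, past the p threshold and just under the fold threshold. The ranges of FPKM did not overlap between PBS and AAV control for 2 of the 10 genes in IP, Serpinf2 and Timp1, both lower in PBS (exact permutation p = 0.1 each, two-sided, the smallest that 3 samples against 3 allow), and for none in input. Over all genes tested this was so for 13.4% in IP and 10.9% in input.

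Without the FPKM filter, 2 genes were called between PBS IP and AAV control IP, Serping1 at −1.83 (SE 0.337, adjusted p = 4.33e-05) and Timp1 at −1.80 (SE 0.450, adjusted p = 0.0149). Both calls were lost without AAV control IP #3, where edgeR gave 0.50 (adjusted p = 0.606) and −0.49 (adjusted p = 0.670). Serpinf2 did the reverse, with −1.41 (SE 0.403, adjusted p = 0.0627) in all libraries and −1.51 (adjusted p = 0.00246) without that sample. Its IP levels of 0.738 to 1.28 FPKM in PBS and 2.08 to 3.06 in AAV control rest on 18 to 34 and 53 to 66 counts per library. No share of all genes called without the filter is given here, so nothing is read from the number of genes called.

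AAV control #3 was high for some of the genes and not for others. In IP it exceeded the mean of AAV control #1 and #2 by 12.1 times for Serping1, 5.03 times for Timp1 and 4.34 times for Serpina3n, which placed them 72nd, 197th and 229th among 12842 genes ordered by this ratio after 0.1 FPKM was added to both values. For Serpine2 the ratio was 1.38, and for the other 6 genes it lay between 0.764 and 0.997. In the input the ratio was 2.85 for Serpina3n, 2.46 for Serping1 and 2.17 for Serpinf1, whereas Timp1, with 2 to 5 counts, gave 0.411. Klk6 and Cd74 were placed 1st and 2nd in IP, at 38.9 FPKM against a mean of 0.0356 and at 83.4 against 0.381. In the input Igkc was placed 9th, at 49.3 against 0.804. The summed FPKM of 6 oligodendrocyte markers was 1037 in AAV control IP #3 against 247 and 316 in the others, and that of 6 mural cell markers 48.7 against 13.7 and 13.1. The sum of 10 reactive astrocyte markers (named below) was 924 against 661 and 603, and that of the 8 astrocytic markers 1534 against 2515 and 2600.1. In the input, the sum of 6 choroid plexus markers was 16.2 in AAV control #3 against 2984 and 2118. The part of these in the high values was not tested. This sample was sequenced in run 2, together with KA #3.

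**Figure D3:**
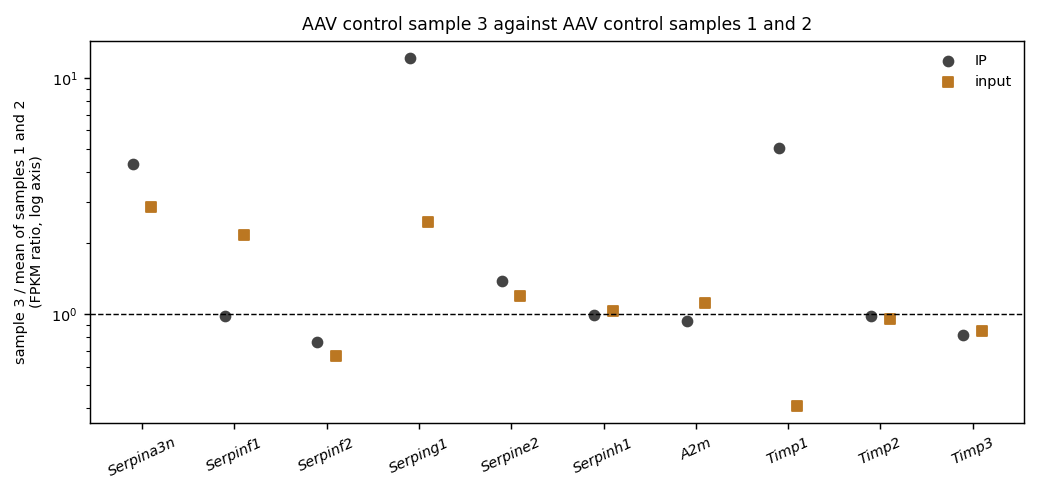
Ratio of FPKM in AAV control #3 to the mean of AAV control #1 and #2, on a log axis, with circles for IP and squares for input. Serping1, Timp1 and Serpina3n stand at 12.1, 5.03 and 4.34 in IP, while Serpinf1, Serpinh1, A2m and Timp2 stand near 1.

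The IP to input ratio of FPKM in one homogenate shows how far a transcript was enriched on the tagged ribosomes. In the AAV control group it averaged 9.44 ± 4.78 for Serpinf1, 8.71 ± 0.794 for Serpine2, 4.02 ± 0.898 for Serpinh1, 3.07 ± 0.255 for Timp3, 2.496 ± 0.650 for Serpina3n and 0.703 ± 0.0147 for Timp2 (SD, n = 3). In the PBS group the same genes averaged 6.41 ± 1.63, 8.68 ± 1.68, 3.95 ± 0.569, 3.15 ± 0.330, 1.53 ± 0.377 and 0.563 ± 0.236. These 6 genes passed the FPKM filter in both comparisons of IP with input. By edgeR 4 of them, Serpinf1, Serpine2, Serpinh1 and Timp3, were called up in IP in both groups, where 13.3% and 14.8% of all genes tested were. Their log2 fold changes were 3.13 (SE 0.391, adjusted p = 0.000709), 3.29 (SE 0.285, adjusted p = 0.000164), 2.12 (SE 0.222, adjusted p = 0.000325) and 1.77 (SE 0.149, adjusted p = 0.000153) in the AAV control group. In the PBS group they were 2.86, 3.27, 2.10 and 1.79, with adjusted p-values of 2.42e-06 to 7.30e-06. These fits do not pair the IP and the input of one homogenate. With the homogenate as a block, edgeR gave 3.19, 3.27, 2.12 and 1.765 in the AAV control group, with adjusted p-values of 1.17e-06 to 3.88e-05.

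Serpina3n and Timp2 did not reach the call in both groups. Serpina3n was at 1.65 (SE 0.762, adjusted p = 0.128 by edgeR) in the AAV control group and 0.71 (SE 0.159, adjusted p = 0.00241) in the PBS group, the latter past the p threshold and under the fold threshold. With the homogenate as a block, the AAV control value was 1.497 with an adjusted p of 1.15e-04 by edgeR, and it was called. DESeq2 also called it (1.65, adjusted p = 0.0368), and so did edgeR with no filter (1.62, adjusted p = 7.21e-06). The ratio was 2.20 and 2.05 in AAV control #1 and #2 and 3.24 in #3. With the IP and the input of homogenate #3 both left out, an alternative chosen after seeing the data, edgeR gave 1.26 (adjusted p = 2.41e-05), which was called. Leaving out only 1 of these libraries moved the value both ways with no filter, to 0.44 without IP #3 (adjusted p = 0.225 by edgeR) and to 2.46 without input #3 (adjusted p = 1.24e-16). Timp2 was lower in IP, at −0.35 (SE 0.152, adjusted p = 0.106) and −0.76 (SE 0.195, adjusted p = 0.00543). With the homogenate as a block, its AAV control value was −0.36 with an adjusted p of 0.014 by edgeR, past the p threshold and under the fold threshold. The other 4 genes were under the filter in control input. Their ratios in the AAV control group were 12.6 ± 4.78 for Serpinf2, 6.79 ± 1.36 for A2m, 3.27 ± 3.16 for Serping1 and 23.4 ± 30.8 for Timp1, and rest on 2 to 54 input counts per library. Without the filter all 4 were called up in the AAV control group, but for 2 of them the value rested on homogenate #3. The ratio of Serping1 was 1.22 and 1.69 in AAV control #1 and #2 and 6.91 in #3, and its value of 2.31 became 0.69 without both libraries of #3 (adjusted p = 0.223 by edgeR), which was not called. It was −0.04 without IP #3 alone and 3.04 without input #3 alone. The ratio of Timp1 was 8.18 and 3.20 in #1 and #2 and 58.9 in #3, where the input held 2 counts, and its value of 4.01 became 2.37 without both libraries (adjusted p = 0.000605 by edgeR), which was still called. It was 2.68 without IP #3 alone. In the PBS group Serpinf2, A2m and Timp1 were called without the filter and Serping1 was not (0.46, SE 0.349, adjusted p = 0.394). No share of all genes called without the filter is given here, so nothing is read from the number of genes called.

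Between the PBS and AAV control groups, the IP to input ratios of 9 genes were compared with exact permutation tests on the log2 scale, and Serpinf2 was left out because 1 PBS input had no count. The ranges did not overlap for Serpina3n, which was lower in PBS (difference −0.71, exact permutation p = 0.1, adjusted 0.9), and they overlapped for the other 8 genes (exact permutation p = 0.4 to 1.0). No p under 0.1 is possible with 3 homogenates a group.

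In the KA group the ratio was 6.98 ± 0.972 for Serpina3n, 10.1 ± 1.77 for Serpinf1, 7.11 ± 1.59 for Serpinf2, 4.05 ± 1.20 for Serping1, 3.06 ± 0.238 for Serpine2, 2.75 ± 0.204 for Serpinh1, 8.47 ± 1.71 for A2m, 7.87 ± 0.286 for Timp1, 0.627 ± 0.105 for Timp2 and 2.63 ± 0.0748 for Timp3. All but Timp2 were thus at least 2.53 times higher in IP than in input in every KA homogenate. The ratio of the summed oligodendrocyte markers was 2.20 ± 0.430 in the KA group, 0.637 ± 0.453 in AAV control and 0.658 ± 0.326 in PBS. Every other list of non-astrocytic markers had a mean KA ratio of 0.380 or lower. The part of these cell types in the ratios of the 10 genes was not tested. The 3 KA ratios of Serpina3n (5.89 to 7.78) lay above all ratios without KA (1.09 to 3.24), those of Serpine2 (2.84 to 3.32) below all of them (6.84 to 10.1), and those of Serpinh1 and Timp3 also below, though closer. For Serpinf1, Serping1, A2m, Timp1 and Timp2 the KA ratios overlapped the others. In the edgeR fit 9 of the 10 genes were called up in IP against input in the KA group, against 8.11% of all genes tested, and nothing is read from this count, as the KA samples chose the genes.

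**Figure D4:**
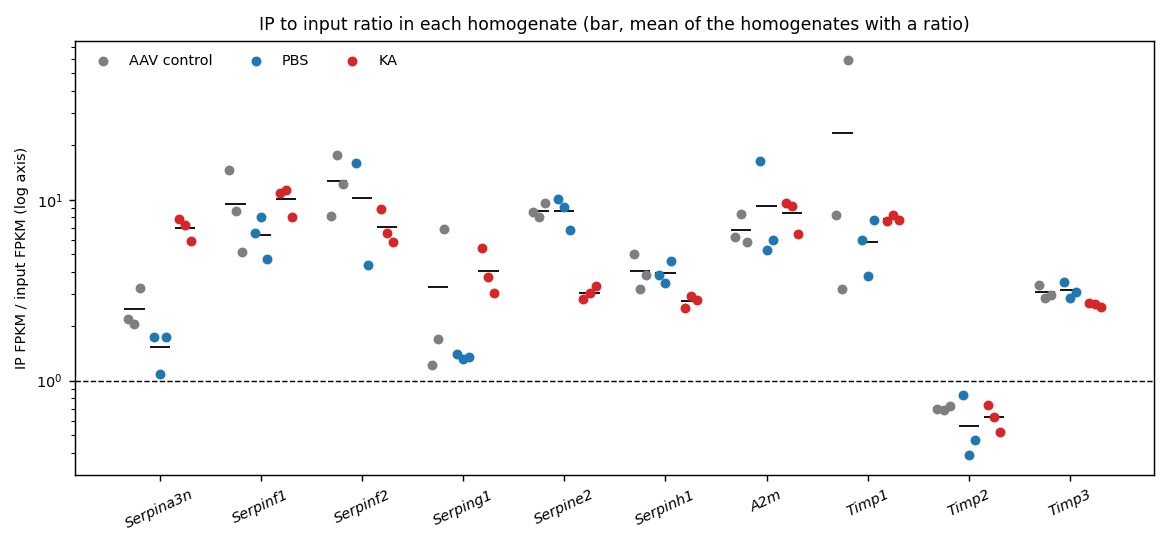
IP FPKM divided by input FPKM of the same homogenate on a log axis, with grey points for AAV control, blue for PBS and red for KA and a bar at the mean. Serpina3n lies between 1.09 and 3.24 without KA and between 5.89 and 7.78 with KA, Serpine2 between 6.84 and 10.1 without and between 2.84 and 3.32 with KA, and Timp2 is below 1 in all 9 homogenates.

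The difference between the KA effect in IP and in input was fitted as an interaction for the 6 genes that passed the filter. With AAV control as baseline, 1 was called, Serpine2 at −1.47, against 9.41% of all genes tested in either direction. With each homogenate as a block, which does not pair KA with AAV control samples, 2 were called, Serpine2 at −1.44 and Serpina3n at 1.504. The same 2 were called without AAV control #3. Without KA #2 none was called, although the value of Serpine2 was −1.47 there as well. With PBS as baseline 2 were called, Serpina3n at 2.23 (SE 0.259) and Serpine2 at −1.52, against 13.9%. These differences contain the KA samples that chose the genes and are given without a p. Over the same samples the IP to input ratio of 10 reactive astrocyte markers (Gfap, Vim, Lcn2, Cd44, Osmr, Steap4, S1pr3, Cp, Hspb1 and Cxcl10) was 15.96 ± 0.634 in the AAV control group, 18.1 ± 3.93 in the PBS group and 9.32 ± 0.794 in the KA group. The ratios of these lists were thus lower with KA, as that of Serpine2, whereas that of Serpina3n was higher. The summed FPKM of the reactive astrocyte markers, as that of Serpina3n, was higher with KA in both kinds of RNA. It was 4460 to 4670 in KA IP, 603 to 924 in AAV control IP and 684 to 1248 in PBS IP. The input sums were 457 to 514, 36.3 to 60.2 and 49.1 to 60.4.

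Markers of other cell types moved with KA as well. In IP the summed oligodendrocyte markers were 1279 to 2439 in the KA group, 247 to 1037 in AAV control and 277 to 549.5 in PBS, and the 7 neuronal markers 228 to 309, 101 to 149 and 115 to 193. The 7 microglial markers were at 16.5 to 23.3, 8.41 to 16.2 and 11.8 to 16.9 in IP, and at 200.4 to 275 in KA input against 34.5 to 58.6 in the inputs without KA. The 6 fibroblast markers, of which none had a mean above 1 FPKM in any IP group, were at 14.4 to 18.2 in KA input and 6.73 to 16.6 in the others. Endothelial, mural and leukocyte sums in KA IP did not exceed the highest AAV control or PBS IP sample. No marker of any list was at 0 in all libraries of a group. Choroid plexus markers summed to 2489 to 4484 in KA input, 2118 to 2984 in AAV control input #1 and #2, 16.2 in AAV control input #3 and 18.8 to 290.4 in PBS input. Within run 1, which leaves out KA #3 and AAV control #3, the KA effect in input was 4.27 for Serpina3n and 3.26 for Serpinf1 on the log2 scale. Without AAV control input #3 alone it was 4.37 and 3.30. These values were larger than over all samples. The part of the other cell types in the values of the 10 genes was not tested.

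Lists of related genes were set beside the 10 to show how the proteases, partners and relatives of these inhibitors measured in KA IP against AAV control IP. The median log2 fold change over all 9729 genes tested was −0.02. Of 63 other serpin symbols, 9 had no count in any library, 8 had a mean above 1 FPKM in some group and only 4 were tested, none of which was called (median −0.0031). Serpini1, the neuronal inhibitor of tissue plasminogen activator, measured 1.79 ± 0.278 FPKM in KA IP and 2.03 ± 0.205 in AAV control IP (log2 fold change −0.13, SE 0.234, adjusted p = 0.748 by edgeR). Against PBS it was called down, at −1.07 (SE 0.247, adjusted p = 0.00744). Of the other TIMPs and macroglobulins only Timp4 was tested, with 56.7 ± 7.14 FPKM in KA IP and 79.9 ± 10.1 in AAV control IP (−0.45, SE 0.210, adjusted p = 0.176), so its level exceeded that of Timp3 in every group while Timp1 passed it only in KA.

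Among 13 tested inhibitors of other families, 2 were called up and 1 down (median 0.32). Spock3, an extracellular proteoglycan of the testican family, rose from 1.65 ± 0.117 to 18.2 ± 2.31 FPKM (log2 fold change 3.50, adjusted p = 7.46e-05 by edgeR) and Pebp1 from 571 ± 22.6 to 1213 ± 81.0 (1.15). Spink8 fell from 9.90 ± 6.39 to 1.46 ± 0.0514 FPKM (−2.75). All of these were lower in AAV control IP than in AAV control input. Their input levels in AAV control and KA were 6.14 ± 0.658 and 16.8 ± 4.93 FPKM for Spock3 and 849 ± 114 and 996 ± 49.2 for Pebp1. For Spink8 they were 86.5 ± 39.3 and 38.1 ± 12.8. Cst3, the cathepsin inhibitor cystatin C, was at 34818 ± 5428 FPKM in KA IP and 37000.3 ± 4609 in AAV control IP (−0.03, adjusted p = 0.968 by edgeR). In input Cst3 measured 13664 ± 791 in the KA group against 4341 ± 1760 in AAV control (1.63, adjusted p = 0.0509) and 5121 ± 566 in PBS, and it was called up against PBS only (1.40, adjusted p = 0.00162).

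Of 6 tested genes of the plasminogen and thrombin systems 2 were called up and 1 down (median 0.42). Anxa2 and S100a10, which together form a cell surface receptor of plasminogen and its activator, rose from 5.37 ± 3.59 to 25.4 ± 5.46 and from 80.5 ± 29.5 to 199 ± 39.4 FPKM (2.23 and 1.35). Htra1, a secreted serine protease of astrocytes, fell from 293 ± 32.1 to 117 ± 27.1 (−1.28), and in input it was at 38.3 ± 6.35 in KA and 27.8 ± 4.71 in AAV control (0.45, adjusted p = 0.261). Plat, tissue plasminogen activator, measured 5.14 ± 0.785 and 3.65 ± 2.16 FPKM (0.50, adjusted p = 0.444), and Plau was at or below 0.270 FPKM in every library.

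All 4 tested genes of the C1 complex and its substrates were called up in IP (median 1.62), namely C1qa, C1qb, C1qc and C4b, and all 4 also in input (median 3.43). Of these, C4b was higher in IP, with 61.3 ± 18.2 FPKM in KA IP and 14.8 ± 3.06 in KA input. C1qa, made mainly by microglia, was far lower in IP, with 14.6 ± 7.24 FPKM in KA IP against 770.5 ± 241 in KA input, and C1qb with 12.4 ± 5.61 against 891 ± 169. The proteases that Serping1 inhibits, C1ra, C1rb, C1s1, C1s2, Masp1 and Masp2, were not tested in IP, as they did not reach FPKM above 1 in every library.

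Of 10 tested metalloproteinases 3 were called up and 1 down (median 0.37). Adamts1 measured 6.78 ± 0.715 FPKM in KA IP and 3.07 ± 1.04 in AAV control IP (1.22), Adamts4 3.81 ± 1.13 and 1.53 ± 0.390 (1.33), and Mmp17 6.50 ± 1.08 and 2.90 ± 0.678 (1.21). In input Adamts1 measured 4.44 ± 1.11 FPKM in KA and 1.90 ± 0.647 in AAV control. Adamts4 measured 2.58 ± 0.598 and 2.71 ± 0.556 there, and Mmp17 11.3 ± 0.285 and 12.5 ± 2.71. Adamts4 and Mmp17 were lower in AAV control IP than in AAV control input. Mmp14, the membrane-bound partner of Timp2, fell from 6.59 ± 1.58 to 2.46 ± 0.528 (−1.36, adjusted p = 0.00416 by edgeR) and was also called down against PBS (−1.28), whereas in input it was at 2.27 ± 0.165 in KA and 1.55 ± 0.238 in AAV control (0.55, adjusted p = 0.130). Among 10 tested clearance receptors and partners 2 were called up (median 0.27): Plxdc2, a receptor of the Serpinf1 product (1.03), and Lrpap1, the chaperone of Lrp1 (1.001). Against PBS, Adamts4 (0.82), Mmp17 (0.59), Plxdc2 (0.94) and Lrpap1 (0.93) were not called. Lrp1 itself was at 14.3 ± 3.45 FPKM in KA IP and 15.5 ± 2.51 in AAV control IP (−0.08, adjusted p = 0.817). Of 9 tested genes of collagens and collagen folding, 1 was called up (median 0.30), the prolyl hydroxylase subunit P4ha3, from 5.98 ± 0.452 to 24.1 ± 1.40 FPKM (2.06).

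**Figure D5:**
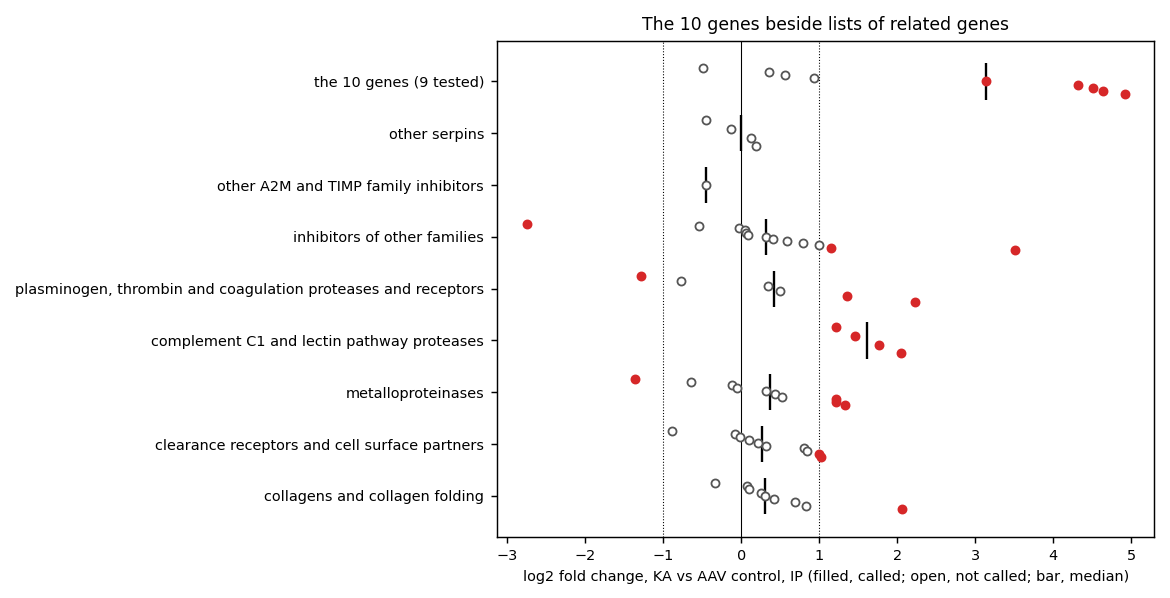
Log2 fold change of KA IP against AAV control IP for the 9 of the 10 genes that were tested and for the tested genes of 8 lists, with filled points for called genes, open points for the others and a bar at the median of each list. The 5 called inhibitors lie between 3.14 and 4.91, and in the lists only Spock3 lies above 3.

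By Pearson's r of log2(FPKM + 1) over the 18 libraries, the genes most like Serpina3n were Bcl3 (0.982), Tgm1 (0.982) and S1pr3 (0.978), those most like Timp1 were Bcl3 (0.991), C3 (0.980) and Slc43a3 (0.979), and those most like A2m were Cd44 (0.988), Slc43a3 (0.986) and Rhoj (0.986), out of 13275 genes with a mean above 1 FPKM. Among the 10 genes themselves the highest r was 0.991, between Serpinf2 and A2m, followed by 0.981 between Serpina3n and Timp1. The lowest was −0.454, between Serpine2 and Timp2. All of these points share the 6 groups of libraries, so these values describe the order of the groups and of IP and input, and they carry no p.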

How the data were processed

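IP and input RNA of 9 homogenates (3 each of KA, AAV control and PBS) was sequenced. The authors aligned reads to mm10 with STAR, and the submitters' processing notes also name featureCounts and edgeR. The authors deposited raw counts per gene and FPKM per gene for each library. The annotation release, strandedness and treatment of multi-mapping reads are not given in the sources used here. Libraries held 7991681 to 16032180 counts.

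Counts were tested with the quasi-likelihood test of edgeR 4.0.16 (R 4.3.3) with Benjamini-Hochberg adjustment over all genes tested, in the 2 groups compared, after keeping genes with FPKM above 1 in every library of the comparison. A gene was called where its adjusted p was under 0.05 and its log2 fold change was 1 or more in size. The SE is the log2 fold change divided by the square root of F. Limma 3.58.1 (voom) and DESeq2 1.42.0 were alternatives, and the fits were tested on simulated data. Samples pool mice, and p-values of the fits with the FPKM filter measure the spread between pools. Without the filter the SE could be smaller, as for Serpina3n in KA against AAV control IP (0.337 against 0.705 with it). The p-values without the filter thus do not measure the spread between pools in full. Intervals on summed counts cover counting error only.

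IP and input samples with the same number share a homogenate. KA and AAV control samples with the same number also deviated together (residual r 0.348 to 0.551 over 9001 genes), and those of KA and PBS and of PBS and AAV control did not in every pair, so the replicate block was an alternative fit.

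The 10 genes and all lists were chosen with earlier results of these data known. Named genes were the 10, up to 3 called genes per list and direction in KA IP against AAV control IP, Timp4, Serpini1, Cst3, Plat, Plau, Lrp1, Mmp14 and Adamts1, the 3 genes most correlated with Serpina3n, Timp1 and A2m, and the Serpina3 copies. Other genes named were chosen after their values were seen.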

Additional observations from a re-analysis of the deposited data

Results flagged for a closer look

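Serpine2 differed between the 2 kinds of RNA after KA. Every KA IP sample lay below every AAV control IP sample, and every KA input sample lay above every AAV control input sample. The KA effect in IP minus that in input was −1.47 on the log2 scale. This difference was fitted as an interaction by edgeR and was called, and no p is given for it because the KA samples were used to choose the genes. The IP value against AAV control, −0.50, was not called and was −0.25 without AAV control IP #3. Against PBS the KA IP samples overlapped (−0.29, and −0.08 without PBS IP #2). The summed astrocytic markers were likewise lower in KA IP and higher in KA input than in AAV control, and their part in it was not tested.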

How the results depend on the processing

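In PBS against AAV control and in IP against input without KA, 318 of 344 alternative log2 fold changes kept sign and call, 8 gained and 2 lost the call at the same sign, and 16 changed sign. In the comparisons that hold KA samples, 614 of 637 kept both, 18 gained and 2 lost the call at the same sign, and 3 changed sign, all of them interactions that were not called (Serpinf1 at −0.080 without AAV control #3, Timp2 at 0.034 in run 1 only and, with PBS as baseline, Timp3 at 0.0046 with no filter). Serping1, called in the fits without the filter, passed the filter once AAV control IP #2 was left out. In those fits with the filter it was not called in KA against AAV control IP (1.70) or in PBS against AAV control IP (−2.23). Filter and samples both differed there, so the loss of the call cannot be ascribed to either. Of 180 alternative IP to input ratios 155 stayed within the spread and 25 moved, and of 145 alternative counts of called genes 134 stayed within 1.5 times and 11 moved. Without the FPKM filter, 2 genes were called in PBS against AAV control IP, 7 in KA against AAV control input, 7 in KA against PBS input, 9 and 7 in IP against input of AAV control and PBS, and 2 in the interaction with AAV control as baseline. No share of all genes called in that setting is given here, so nothing is read from these counts. That setting moved the median of all genes by 0.20 in KA against PBS IP, by −0.11 in PBS against AAV control IP and by 0.27 in the interaction with PBS as baseline. The interaction with AAV control as baseline called 2 genes with the replicate block, 2 in run 1 only and 0 to 2 when 1 sample was left out. The replicate block also added the call of Serpina3n in IP against input of AAV control (1.497) and changed no other call. With a pseudocount of 1, 4 genes had a mean ratio of at least 2 in PBS in place of 7. Of the 16 reversed values, 2 belong to Serping1, which was under the FPKM filter and was called without it. Its values were −1.83 in PBS against AAV control IP and 2.31 in IP against input of AAV control. The other reversed values belong to differences that were not called with the FPKM filter. In PBS against AAV control IP, leaving out 1 sample at a time gave −1.13 to 0.45 for Serpina3n, −0.46 to 0.027 for Serpine2 (both above 0 without AAV control #3), −0.074 to 0.13 for Serpinh1 (below 0 without AAV control #2 or PBS #2) and −0.16 to 0.023 for Timp3 (above 0 without PBS #3). Serpinh1 was at −0.035 with no filter. With no filter and without AAV control IP #3, chosen after seeing the data, Serpina3n was at 0.31, Serpinh1 at −0.0054 and Serping1 at 0.50. In input, the same range was −0.13 to 0.96 for Serpina3n (below 0 without AAV control #1 or #2), −0.44 to 0.36 for Serpinf1 (above 0 without AAV control #3, and 0.39 with no filter as well) and −0.066 to 0.18 for Serpinh1 (below 0 without AAV control #1 or PBS #2). Serping1 in IP against input of AAV control became −0.041 with no filter and without AAV control IP #3 alone, and 0.69 without both libraries of that homogenate. The cause was not tested. Depth limits Timp1, Serpinf2 and A2m in input without KA.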
